A study of Mus musculus with 6 samples.

Results

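Killer cell lectin-like receptors are the surface receptors with which natural killer (NK) cells and some T cells weigh healthy against stressed cells. The genes examined here were those whose names start with Klra, Klrb, Klrc, Klrd, Klre, Klrg, Klrh, Klri or Klrk, plus Ncr1, which encodes the unrelated NK receptor NKp46. The rule gave 28 genes of the 29781 listed in the 6 libraries. By roles assigned from their known biology, 14 were inhibitory, 10 activating, and 4 were partner chains or were not assigned a role.

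The tissue was orthotopic pancreatic tumour raised by inoculating the mouse pancreatic cancer line KPC into wild-type C57BL/6J mice, and was taken on day 11. Mice received the monoclonal antibody #44-anti-mVSIG4 against VSIG4, a complement receptor of macrophages (anti-VSIG4, 3 mice), or IgG (3 mice). All groups carried the same tumour, and no tumour-free or untreated mice were among the libraries. Each mouse gave 1 single-cell library, so n counts mice.

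Inhibitory receptors of the family carry an immunoreceptor tyrosine-based inhibition motif (ITIM) in their cytoplasmic tail, and its phosphorylated tyrosine recruits phosphatases such as SHP-1. Activating receptors lack it and signal through adaptors such as DAP12 (Tyrobp) or DAP10 (Hcst). Most Ly49 receptors (the Klra genes) and the CD94-NKG2 dimers (Klrd1 with Klrc1 or Klrc2) read MHC class I proteins, so that an NK cell is restrained by cells that still display them. Each NK cell uses only some of the Ly49 genes, which gives a population of cells with different receptor sets.

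Inhibitory and activating Ly49 genes differ at an early codon, and the windows below are shown because the balance of both kinds is followed through the results. In the GENCODE M21 transcripts (GRCm38), all 14 inhibitory members had an ITIM (isoleucine, leucine, valine or serine, any residue, tyrosine, any 2 residues, then isoleucine, leucine or valine) within the first 60 residues. Of the 10 activating members 1 had such a match, Klrb1c at residue 55. The windows below run 5′ to 3′ over codons 6 to 11 of the coding sequence, with codon 8 in capitals. Codon 8 encodes the ITIM tyrosine in the inhibitory Ly49 genes and is TTC, phenylalanine, in Klra4 (Ly49D) and Klra8 (Ly49H).
Klra4: gacactTTCtcagctgtg
Klra8: gtcactTTCccaactatg
Klra7: gtcactTACtcaactgtg
Klra1: gtcactTATtcaatggtg
Klra2: gtcactTACacaactctg
Klra17: gtcactTATtcaactgtg
Klra3, Klra5, Klra6, Klra9 and Klra10 had the same 18 bases as Klra7. Of 27 members found in that annotation, 26 were on chromosome 6, where most form the NK gene complex, and Ncr1 was on chromosome 7. Klra4 lay at chr6:130043731-130067271 and Klra8 at chr6:130115226-130129898, both on the minus strand (GRCm38).

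The libraries held 26606234 to 47221033 unique molecular identifiers (UMIs) and 6482 to 9528 cells were kept in each. Cells were clustered without the 28 genes, so that no receptor could place a cell in a class. Among the T and NK cells, 991 were NK-like, 1908 CD8 T-like, 1091 CD4 T-like, 388 regulatory T-like (Treg) and 121 gamma-delta T-like, and 632 were T cells with Ccr7 and Xcl1 among their leading genes, called naive-type T cells here. The name of this last class is uncertain: it carried Cd3e at 387 CPM and Trac at 328 CPM, against 31.9 and 37.7 CPM in NK cells, and also the NK-type genes Fcer1g at 715 CPM and Tyrobp at 670 CPM, against 2041 and 5590 CPM in NK cells. Whether single cells carried both or the class mixed cell types was not tested. Another 2163 cells in 7 sub-clusters stayed unnamed, since cycling, haemoglobin or myeloid genes led them, or markers of another class. The 3 libraries anti-VSIG4 3, IgG 2 and IgG 3 stood apart: 4.38%, 14.8% and 40.1% of their cells resembled nuclei, against 0.154% to 0.294% in the others. Cells counted here lay in a nucleus-like cluster and themselves had over 15% of UMIs in genes over 100 kb. Nucleus-like clusters were kept whole as a class of their own, which is larger. It held 113, 34 and 361 cells in the anti-VSIG4 libraries and 65, 1320 and 4098 in the IgG libraries. Barcodes are written as cell numbers in the files, and pairs of libraries shared 1013 to 1809 such names, so identity of cells between libraries could not be read from them.

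NK cells carried the family more broadly than any other class. Of the 28 members, 18 had their highest level in NK cells when 16 classes were ranked by CPM, the count scaled to a fixed total of UMIs of the class. The 18 include Klra10, Klrb1 and Klrc3, at 2.38, 1.70 and 2.04 CPM. These lie near the 1.02 CPM that 3 counts give in NK cells, so their rank is weak. Klra1, Klra5 and Klra6 peaked in naive-type T cells, Klrc1 in CD8 T cells, Klrh1 in CD4 T cells, Klrg1 in Treg, Klra2 in monocytes and macrophages, and Klri1, Klra17 and Klrg2 in dendritic or tumour cells. The lead was narrow for Klra5, at 5.09 CPM beside 4.18 CPM in CD8 T cells. It was also narrow for Klrg2, at 2.01 CPM in tumour cells beside 1.64 CPM in endothelial cells. Levels are compared between classes for 1 gene at a time, as descriptions with no test.

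**Figure D1:**
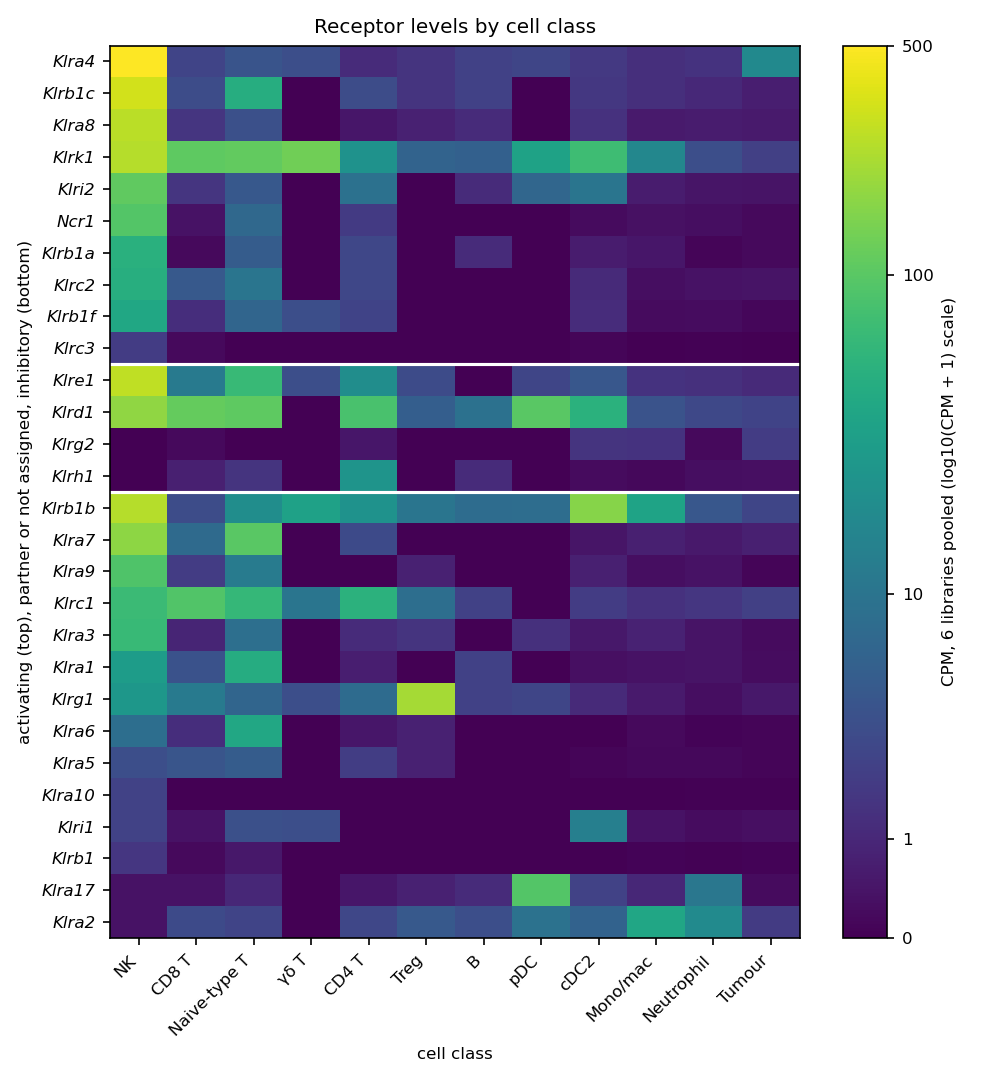
Level of each of the 28 receptor genes (rows: activating on top, partner or unassigned in the middle, inhibitory at the bottom) in 12 cell classes (columns), as CPM pooled over 6 libraries on a log10(CPM + 1) colour scale. The NK column is the brightest for most genes, while Klrg1 peaks in Treg, Klrb1b is also high in cDC2, Klra17 in pDC and Klra2 in monocytes and macrophages.

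Klra4, encoding the activating receptor Ly49D, had 1439 of its 2772 UMIs in NK cells. There it stood at 516.7, 624.6 and 435.7 CPM in the anti-VSIG4 libraries, against 383.8, 403.9 and 613.4 CPM in the IgG libraries, and the groups overlapped. Klra8, encoding Ly49H, which in C57BL/6 mice recognises a cytomegalovirus protein, stood at 318.0, 161.9 and 272.8 CPM in the anti-VSIG4 libraries, against 242.2, 191.1 and 322.1 CPM in the IgG libraries. Both genes were low in T cells: Klra4 reached 4.07 CPM and Klra8 3.56 CPM in naive-type T cells, and Klra4 2.54 CPM and Klra8 1.64 CPM in CD8 T cells.

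Klrb1c encodes NK1.1, the activating receptor used to define NK cells in this strain. It stood at 354.6, 297.4 and 362.5 CPM in anti-VSIG4 NK cells, against 315.3, 307.2 and 284.7 CPM in IgG NK cells. Klrk1 encodes NKG2D, which binds stress-induced ligands on tumour cells and signals through DAP10. Its NK level was 229.3, 185.1 and 262.1 CPM in the anti-VSIG4 libraries, against 226.2, 268.5 and 281.5 CPM in the IgG libraries. Klrk1 was shared widely, at 106 CPM in CD8 T cells, 111 CPM in naive-type T cells, 129 CPM in gamma-delta T cells and 71.5 CPM in type 2 conventional dendritic cells (cDC2).

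Ncr1, the receptor NKp46 found on NK cells and type 1 innate lymphoid cells, stood at 103.9, 76.0 and 100.4 CPM in anti-VSIG4 NK cells, against 66.2, 101.6 and 99.2 CPM in IgG NK cells. It had 274 of its 450 UMIs in NK cells and 2 in CD8 T cells. Klri2, which forms an activating receptor with the Klre1 chain, averaged 103.8 ± 38.8 CPM in anti-VSIG4 and 105.9 ± 23.1 CPM in IgG NK cells (SD, n = 3 each). The remaining activating members were lower: Klrb1a, Klrc2 and Klrb1f averaged between 37.6 and 49.1 CPM over the 6 libraries. Klrc3 (NKG2E) had 37 UMIs in all kept cells and was listed in 5 libraries.

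Among the inhibitory members, Klrb1b, whose product binds the C-type lectin Clr-b (Clec2d), reached its highest level in NK cells. That level was 232.4, 277.6 and 258.6 CPM in the anti-VSIG4 libraries, against 233.0, 174.2 and 299.4 CPM in the IgG libraries. Klra7, encoding Ly49G, had 211.0, 155.3 and 159.4 CPM in anti-VSIG4 NK cells, against 194.2, 191.1 and 144.8 CPM in IgG NK cells. Klra9 (Ly49I) had 134.5, 119.0 and 74.4 CPM in anti-VSIG4 NK cells, against 57.1, 70.1 and 104.1 CPM in IgG NK cells. In each of these 3 genes the groups overlapped.

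Klra3 (Ly49C) ranged from 26.4 to 79.5 CPM over the 6 NK samples, and Klra1 (Ly49A) from 6.61 to 61.1 CPM. Library anti-VSIG4 2 had the lowest value of Klra8, Klra3 and Klra1. Klra6 (Ly49F), Klra5 (Ly49E) and Klra10 (Ly49J) had 25, 10 and 7 UMIs in all NK cells, and Klrb1, another gene of the NKR-P1 group, had 5 there and 32 in all kept cells. Klrg1, a receptor for cadherins found on mature NK cells and effector T cells, averaged 22.3 ± 8.39 CPM in anti-VSIG4 and 24.8 ± 9.29 CPM in IgG NK cells (SD, n = 3 each).

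The partner chains were also high in NK cells. Klrd1, encoding CD94, the shared chain of the NKG2 dimers, had 198.7, 185.1 and 192.5 CPM in anti-VSIG4 NK cells, against 159.9, 162.1 and 172.5 CPM in IgG NK cells. The groups did not overlap. Klre1, the partner of Klri1 and Klri2, had 275.2, 241.3 and 294.0 CPM in anti-VSIG4 NK cells, against 237.6, 290.3 and 278.2 CPM in IgG NK cells, and the groups overlapped.

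The class called NK carried its defining genes, with Gzma at 5666 CPM, Prf1 at 906 CPM, Tyrobp at 5590 CPM and Eomes at 221 CPM. Reads of the T-cell gene Cd3e were at 31.9 CPM there. NK cells fell into 2 sub-clusters of 541 and 450 cells, and every one of the 18 members tested in NK cells had a higher pooled level in the second, which also had more Xcl1, at 2199 against 695 CPM. Klrg1 stood at 35.7 CPM in it and 11.6 CPM in the first, and Klra4 at 549 and 403 CPM. The median cell held 3390.5 UMIs in the second and 1917 in the first, and the part of depth in this was not tested.

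**Figure D2:**
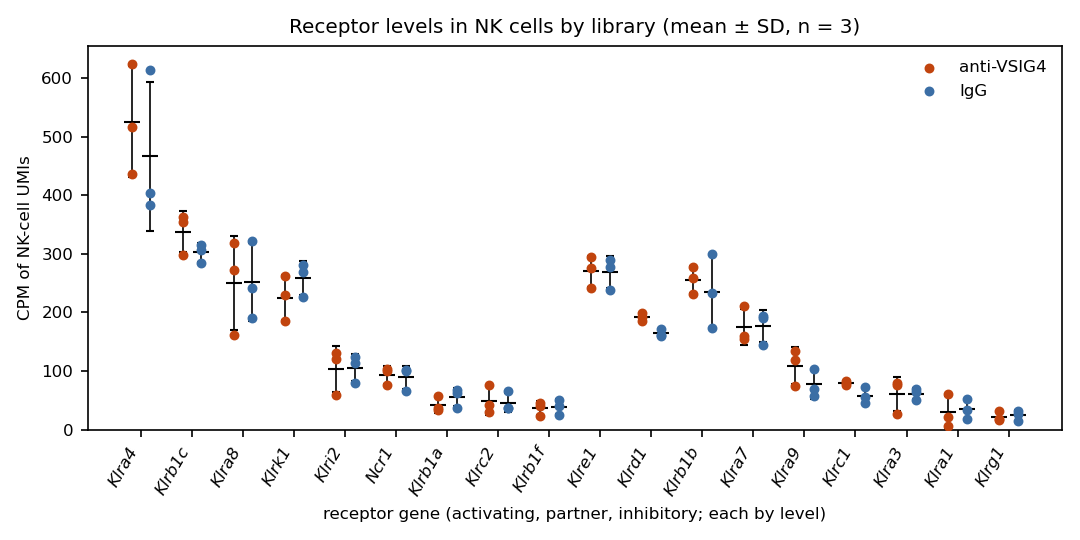
CPM of NK-cell UMIs for the 18 receptor genes tested in NK cells, with anti-VSIG4 libraries left of IgG libraries; points are libraries, bars are mean ± SD (n = 3 each). Klrd1 and Klrc1 are the genes whose groups do not overlap, and the spread of Klra4 and Klra8 within a group exceeds the difference between the groups.

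In NK cells edgeR's quasi-likelihood test with Benjamini-Hochberg adjustment called 0 of 18 members and 0 of 4763 genes, a share of 0%. DESeq2 also called 0. At an unadjusted p under 0.05 there were 0 members, against 231 genes or 4.85% of those tested. Estimates of the 18 members ran from -0.24 to 0.51 on the log2 scale with a median of 0.05, beside a median of 0.002 over all genes.

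Klrc1 (NKG2A), the inhibitory partner of CD94, had the highest estimate. It stood at 82.5, 76.0 and 80.3 CPM in anti-VSIG4 NK cells, against 73.1, 55.6 and 45.6 CPM in IgG NK cells, and the groups did not overlap. Its log2 fold change was 0.51 ± 0.28 (SE) with an adjusted p of 0.998. For Klrd1 it was 0.26 ± 0.21 with the same adjusted p. Members without overlap between the groups were 2 of 18 on the higher side, where 3.84% of all genes lay, and 0 of 18 on the lower side, where 6.78% of all genes lay. Klra4 had a log2 fold change of 0.20 ± 0.23 and Klra8 of 0.03 ± 0.26, so neither activating Ly49 gene differed beyond the spread between mice. For a fold of NK receptor RNA, fewer transcripts in a cell and fewer cells with the receptor cannot be told apart in these sums.

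Activating members gave most of the receptor UMIs in NK cells. UMI counts of different genes also depend on how well each transcript is captured, so the shares are compared between classes and not read as amounts of protein. Of the UMIs of role-assigned members, 69.9% were activating in NK cells, with 67.4% to 71.5% in single libraries. The share was 68.1%, 68.4% and 70.4% in the anti-VSIG4 libraries, against 67.4%, 71.3% and 71.5% in the IgG libraries. Gamma-delta T cells, with 40 activating and 15 inhibitory UMIs, had a share of 72.7%, and tumour cells, where Klra4 gave most of the count, 70.7%. In CD8 T cells it was 48.2%, in naive-type T cells 39.1%, in CD4 T cells 33.01% and in Treg 3.98%, where the inhibitory Klrg1 held 278 of 314 inhibitory UMIs.

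Within the Ly49 genes the contrast between classes was wider. Klra4 and Klra8 together held 67.0% of Ly49 UMIs in NK cells and 62.0% to 71.8% in single libraries. In naive-type T cells they held 3.38%, with 15 UMIs against 429 of the inhibitory Ly49 genes. These cells used Klra7, Klra1 and Klra6, each with the tyrosine codon shown above. In CD8 T cells the share was 15.2%, from 23 UMIs of Klra4 and Klra8 and 128 of the inhibitory Ly49 genes, and library values ran from 0% to 45.2%.

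**Figure D3:**
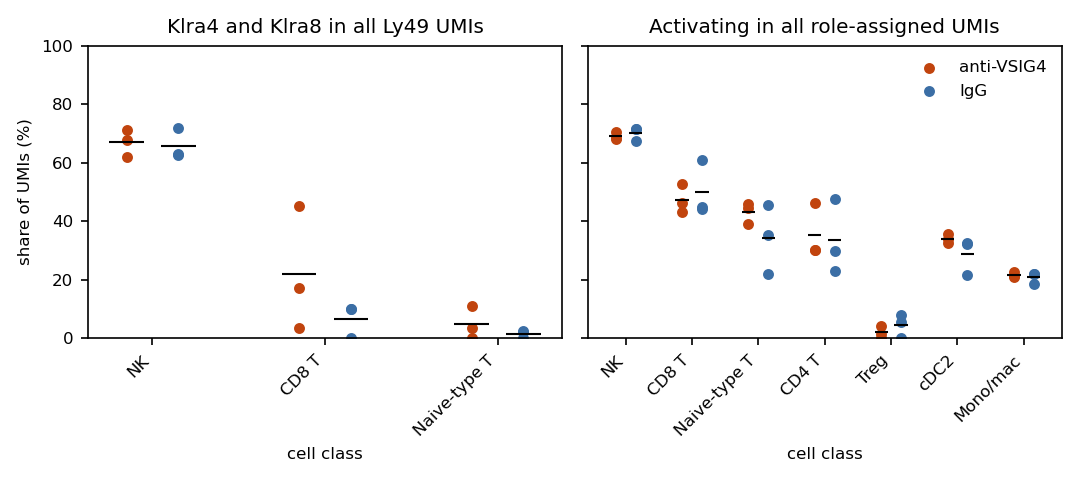
Share of UMIs from activating members, in percent, per library: left, Klra4 and Klra8 among all Ly49 UMIs; right, activating members among all role-assigned UMIs. Points are libraries, anti-VSIG4 left of IgG within each class, and short lines are group means. NK libraries lie between 62.0% and 71.8% on the left, and naive-type T libraries between 0% and 11.1%.

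Single NK cells carried several receptors. After each cell was thinned to 1000 UMIs, which left out 0 of 991 cells, an NK cell showed on average 2.08 members, with a maximum of 9. At this depth 13.3% of NK cells showed none, 35.1% showed 3 or more, and 52.4% showed a Ly49 gene. Cells with both an activating and an inhibitory member made up 29.97%, those with activating members only 40.2%, and those with inhibitory members only 12.6%. At the same depth the mean was 0.325 members in CD8 T cells, 0.0433 in neutrophils, 0.0382 in tumour cells and 0.0118 in B cells. Klra2 and Klra17 in neutrophils and Klra4 in tumour cells add to these means, so they are not a measure of free RNA alone.

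Klra4 was detected in 29.2% of NK cells at 1000 UMIs, with 22.7% to 38.6% in single libraries. The share was 0.13% in neutrophils, 0 of 255 B cells, which allows up to 1.18%, and 1.2% in tumour cells at the same depth, from median depths of 1575, 2378 and 6278 UMIs, against 2444 UMIs in NK cells. Klrb1c was found in 23.2% of NK cells, Klre1 in 20.9%, Klrk1 in 19.7%, Klrb1b in 18.4%, Klra8 in 17.4% and Klrd1 in 15.7%. For these 6 genes the highest share in neutrophils, tumour cells or B cells was 0.784%, for Klrb1b in B cells. In cDC2 Klrb1b was found in 15.2%, Klrk1 in 6.77%, Klrd1 in 6.68% and Klre1 in 0.418%. Klrb1c and Klra8 were found in 0 of 1197 cDC2.

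The number of members per NK cell was 2.33, 1.82 and 2.20 in the anti-VSIG4 libraries, against 1.90, 1.98 and 2.23 in the IgG libraries. The difference was 0.0827 and the exact two-sided permutation test gave p = 0.8, where the smallest p that 3 against 3 libraries allow is 0.1. For the share of NK cells with a UMI of each member, 25 members were compared by the same exact test and 0 had groups without overlap. The lowest adjusted p was 1, with 13 members higher and 8 lower in anti-VSIG4.

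Which receptors were found in the same NK cell was read from 624 NK cells thinned to 2000 UMIs, for the 15 members found in 50 or more of them. The number of cells with both genes was set against the product of the shares within each library, which gives a ratio of 1 where they occur independently. Over 105 pairs the median ratio was 1.11, and 79 pairs lay over 1. Of the 105 pairs, 8 lay over 1 in all 6 libraries. Pairs of NK genes are named partly by that rule, so their 6 of 6 libraries are not separate support. A cell with more receptor RNA overall raises every ratio, and cells of a library share their source, so the ratios are descriptions.

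The activating pair Klra4 and Klra8 was found together in 103 cells, against 75.2 given by the product (ratio 1.37), and the ratio was over 1 in 6 of 6 libraries. Klra4 and Klrc2, which encodes the activating NKG2C, had a ratio of 1.52, and Klra3 and Klra8 1.51, also in 6 of 6 libraries. Klrd1 and Klre1 shared 75 cells, against 56.6 (ratio 1.33). The CD94 and NKG2A genes Klrd1 and Klrc1, whose products form 1 receptor, had a ratio of 1.47, over 1 in 4 of 6 libraries.

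Klrb1b ran the other way against Klra4, Klra8, Klra3 and Klra7. It shared 45 cells with Klra4, against 68.4 given by the product (ratio 0.658). The ratio was 0.670 with Klra8, 0.654 with Klra3, 0.779 with Klra7 and 0.941 with Klra9. With Klra7 the ratio was over 1 in 0 libraries, and with Klra4 and Klra8 in 1. At 1000 UMIs the ratio of Klra4 and Klrb1b was 0.417 and without thinning 0.646, below 1 at each depth. Klrc1 and Klrc2, whose products both pair with CD94, shared 3 cells, against 6.44 (ratio 0.466), but the ratio was 1.26 at 1000 UMIs and 0.973 without thinning, so no direction held. Transcripts of these share sequence, 14.6% of the 100-base stretches of Klrc1 and 7.09% of those of Klrc2, so their counts can be mixed.

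**Figure D4:**
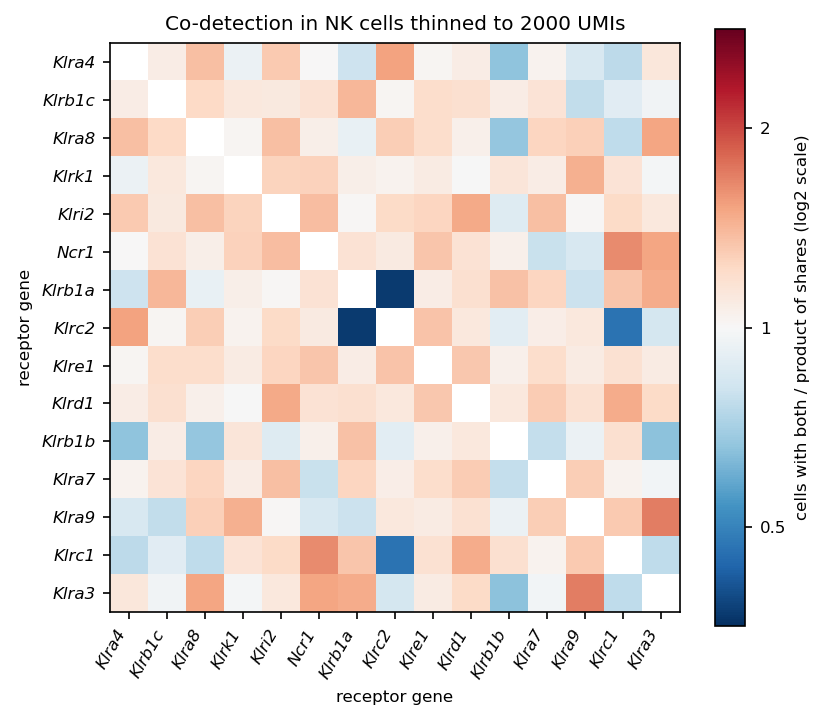
Ratio of NK cells with both genes to the product of the shares within each library (log2 colour scale, red over 1, blue under 1) for 15 receptor genes, in 624 NK cells thinned to 2000 UMIs. Klrb1b is blue against Klra4, Klra8, Klra3 and Klra7, while Klra4 and Klra8 are red against each other.

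In CD8 T cells the family narrowed to the CD94-NKG2 and NKG2D genes. Klrd1, Klrk1 and Klrc1 held 634, 584 and 508 UMIs, and no other member passed 64. At 1000 UMIs, Klrd1 was found in 9.28% of CD8 T cells, Klrc1 in 9.07% and Klrk1 in 8.65%. In neutrophils, tumour cells and B cells the share was at most 0.674% for any of these. Dendritic cells shared 2 of the genes. Klrd1 was found in 9.60% of plasmacytoid dendritic cells and 6.68% of cDC2, and Klrk1 in 1.69% and 6.77%. Klrc1 was found in 0 of 177 and 0 of 1197 of these cells. In 1172 CD8 T cells thinned to 2000 UMIs, Klrd1 and Klrk1 shared 51 cells, against 33.2 given by the product (ratio 1.54, over 1 in 6 of 6 libraries, and 1.51 and 3 of 6 at 1000 UMIs). Klrc1 and Klrk1 had a ratio of 1.66, and the dimer genes Klrc1 and Klrd1 a ratio of 1.07.

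Klrk1 stood at 139.1, 107.5 and 114.6 CPM in anti-VSIG4 CD8 T cells, against 86.6, 99.0 and 74.4 CPM in IgG CD8 T cells, and the groups did not overlap. Klrd1 stood at 162.5, 137.7 and 81.1 CPM in the anti-VSIG4 libraries, against 116.0, 66.5 and 81.1 CPM in the IgG libraries, and overlapped. Klrc1 stood at 139.1, 87.6 and 91.4 CPM in the anti-VSIG4 libraries, against 98.1, 45.8 and 82.5 CPM in the IgG libraries. The 3 estimates were positive, at 0.47 ± 0.23, 0.55 ± 0.25 and 0.50 ± 0.26 on the log2 scale for Klrk1, Klrd1 and Klrc1, and none passed edgeR's test, with an adjusted p of 0.998 for each.

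edgeR called 0 of 3 members and 0 of 6340 genes in CD8 T cells, a share of 0%, and DESeq2 called 2 genes (0.011%) and 0 members. At an unadjusted p under 0.05 by edgeR there was 1 member, Klrd1, against 211 genes or 3.33%. Groups without overlap were 1 of 3 on the higher side, where 3.38% of all genes lay, and 0 of 3 on the lower side, where 4.1% lay. Tyrobp, which T cells use little, moved in the same direction in the CD8 T class, at 388.7 ± 147.9 CPM in anti-VSIG4 and 214.5 ± 152.7 CPM in IgG (SD, n = 3 each), and its part in the estimates was not tested.

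Klrd1 had a positive estimate in each of the 9 classes tested, from 0.26 in NK cells to 2.06 in neutrophils on the log2 scale, with an unadjusted p under 0.05 in 4 of them. None passed the adjusted threshold, and the lowest adjusted p by edgeR was 0.803. The class sums come from the same 6 mice, and the sum over all T and NK cells holds the other T and NK classes, so the 9 estimates are not separate pieces of evidence. Fitted in the 3 libraries with few nucleus-like cells, which set 2 anti-VSIG4 mice against 1 IgG mouse, the estimates ran from 0.32 to 2.84. In the 3 with many, 1 anti-VSIG4 mouse against 2 IgG mice, they ran from 0.02 to 0.74. Each of these fits assumes that the lone mouse varies like the others. In CD4 T cells Klrd1 stood at 97.0, 85.8 and 106.8 CPM in the anti-VSIG4 libraries, against 49.2, 47.9 and 89.8 CPM in the IgG libraries, with a log2 fold change of 0.65 ± 0.28 and an adjusted p of 0.996 by edgeR. With CD4 T cells picked by gene gates its mean over the libraries was 52.9 CPM, against 79.4 CPM. In cDC2 it stood at 75.9, 53.1 and 41.3 CPM in the anti-VSIG4 libraries, against 36.1, 28.9 and 52.9 CPM in the IgG libraries, and the groups overlapped. Outside the 9 classes the direction varied. The estimate was -0.36 ± 0.49 in gamma-delta T cells picked by gene gates. Klrd1 averaged 92.0 ± 46.0 CPM in anti-VSIG4 and 110.6 ± 41.0 CPM in IgG plasmacytoid dendritic cells (SD, n = 3 each). In migratory dendritic cells it averaged 25.5 ± 11.8 CPM in anti-VSIG4 and 16.0 ± 2.14 CPM in IgG (SD, n = 3 each). The 2 dendritic classes were not tested.

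**Figure D5:**
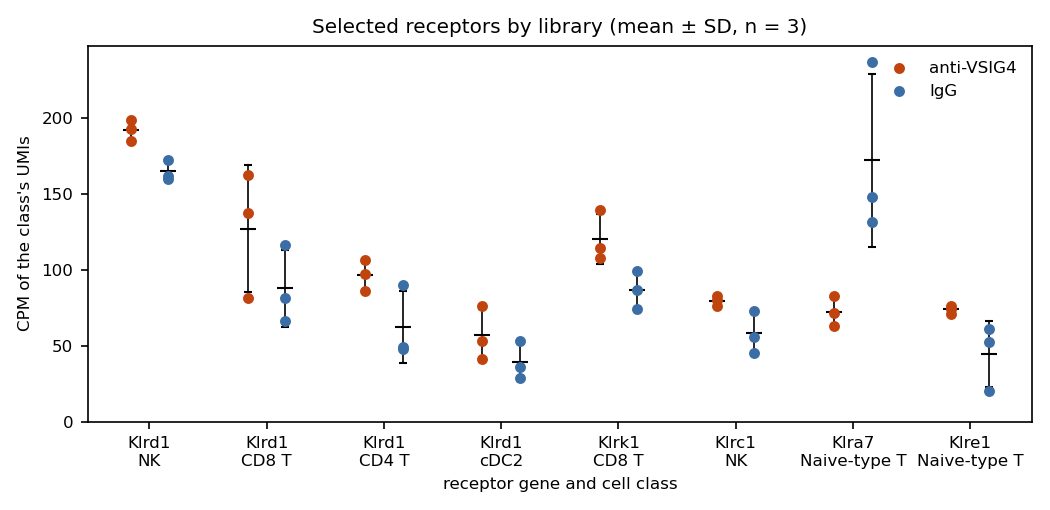
CPM per library of Klrd1 in 4 classes and of Klrk1, Klrc1, Klra7 and Klre1 in a class each, with anti-VSIG4 left of IgG; points are libraries and bars are mean ± SD (n = 3 each). Klra7 in naive-type T cells lies at 63.3 to 82.6 CPM in anti-VSIG4 and 131.3 to 236.9 CPM in IgG, and none of the 8 comparisons passed edgeR's adjusted threshold.

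In the naive-type T cells the inhibitory Ly49 genes had 429 UMIs in 632 cells, beside 128 in the 1908 CD8 T cells. Klra7 stood at 82.6, 71.5 and 63.3 CPM in their anti-VSIG4 libraries, against 131.3, 236.9 and 147.8 CPM in the IgG libraries, and the groups did not overlap. Its log2 fold change was -1.14 ± 0.32, with an unadjusted p of 0.00265 and an adjusted p of 0.968 by edgeR, and over the alternative settings it ran from -1.49 to -0.62. Klra1 stood at 44.6, 41.7 and 31.6 CPM in the anti-VSIG4 libraries, against 64.2, 59.2 and 47.0 CPM in the IgG libraries, again without overlap, with an estimate of -0.46 ± 0.38.

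Klre1 went the other way in these cells, at 71.0, 74.5 and 76.4 CPM in the anti-VSIG4 libraries, against 61.3, 52.6 and 20.2 CPM in the IgG libraries. Its estimate was 0.72 ± 0.39. edgeR called 0 of 8 members and 0 of 3724 genes here, a share of 0%, and DESeq2 called 0. At an unadjusted p under 0.05 there was 1 member, Klra7, against 184 genes or 4.94%. Groups without overlap were 1 of 8 members on the higher side, where 3.22% of all genes lay, and 2 of 8 on the lower side, where 6.42% lay. In 448 of these cells thinned to 2000 UMIs, Klra7 and Klrd1 shared 20 cells, against 11.3 given by the product (ratio 1.77, over 1 in 6 of 6 libraries, and 2.10 and 3 of 6 at 1000 UMIs). The class held 43 and 36 cells in IgG 2 and IgG 3. Tyrobp, the adaptor of NK cells, also had less in the anti-VSIG4 libraries, at 559.4 ± 158.8 CPM against 870.3 ± 123.6 CPM in IgG (SD, n = 3 each, unadjusted p = 0.0374), and its part in the Klra7 values was not tested.

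Gamma-delta T cells, which here were led by Il17a and Trdc, showed little of the family beyond Klrk1. Of 121 cells, 35, 46 and 22 came from the anti-VSIG4 libraries and 13, 4 and 1 from the IgG libraries, too few for a test. Klrk1 had 38 UMIs and Klrb1b 10, and Klrd1 had 0, which with 3 counts as the floor allows up to 10.2 CPM. Klrk1 was found in 9.92% of these cells at 1000 UMIs.

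Cells picked by gene gates for gamma-delta T cells were another population: of 271, 33.2% lay in the gamma-delta cluster, 25.5% in the NK class and 24.4% in the naive-type class. The cluster made up 28, 35 and 18 of the gated cells in the anti-VSIG4 libraries, against 8, 1 and 0 in the IgG libraries. In these gated cells Klrb1b stood at 41.9, 23.4 and 32.8 CPM in the anti-VSIG4 libraries, against 139.5, 116.5 and 325.1 CPM in the IgG libraries, with a log2 fold change of -2.45 ± 0.49 and an adjusted p of 0.0614 by edgeR. edgeR called 0 of 9 members there, and 4 of 2358 genes, 0.17%. All 9 estimates were negative, and the make-up of the gated cells and their levels cannot be told apart.

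In Treg the main receptor was Klrg1, which marks a differentiated, tissue-type state of these cells. It held 278 of the 968 Klrg1 UMIs in all kept cells, at 203.5, 228.5 and 269.2 CPM in the anti-VSIG4 libraries, against 221.6, 247.8 and 122.0 CPM in the IgG libraries, and the groups overlapped. At 1000 UMIs it was found in 17.3% of Treg, against 1.41% of NK cells and 0.681% of CD8 T cells. IgG 2 held 16 Treg, so that no test was run in this class.

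CD4 T cells carried Klrd1 at 82.2 CPM and Klrc1 at 53.4 CPM, mostly in a sub-cluster of 450 cells led by Gzmc, Ccl1 and Gzmf, where Klrd1 stood at 119 CPM. Klrh1, a member with no assigned role, had 103 UMIs in CD4 T cells and 0 in NK cells, where the floor of 3 counts allows 1.02 CPM. At 1000 UMIs it was found in 4 of 1091 CD4 T cells. edgeR called 0 of 6 members and 0 of 6207 genes in CD4 T cells, a share of 0%, DESeq2 called 0, and at an unadjusted p under 0.05 there was 1 member, Klrd1, against 224 genes or 3.61%. Groups without overlap were 0 of 6 on the higher side, where 3.79% of all genes lay, and 0 of 6 on the lower side, where 4.45% lay.

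Summed over all T and NK cells, named or not, edgeR called 0 of 22 members and 0 of 11376 genes, a share of 0%, and DESeq2 called 5 genes (0.0218%) and 0 members. At an unadjusted p under 0.05 there was 1 member, Klrd1, against 401 genes or 3.52%. Klrd1 stood at 126.0, 90.1 and 98.0 CPM in the anti-VSIG4 libraries, against 70.4, 66.7 and 90.5 CPM in the IgG libraries, and the groups overlapped by a single pair of libraries. Groups without overlap were 0 of 22 on the higher side, where 3.27% of all genes lay, and 0 of 22 on the lower side, where 4.73% lay. The members' counts here depended on the libraries. NK cells made up 114, 131 and 220 of the 1622, 1738 and 915 cells in the anti-VSIG4 libraries. In the IgG libraries they made up 176, 151 and 199 of 1308, 773 and 938 cells. The part of this mix in the members' values was not tested. At an unadjusted p under 0.05 there were 12 of 22 members without anti-VSIG4 3 and 0 without IgG 2. The estimates were positive for 9 of 22 members with all libraries, for 7 of 22 without anti-VSIG4 3 and for 18 of 22 without anti-VSIG4 2. In the libraries with few nucleus-like cells 7 of 23 were positive, and in those with many 20 of 21. In the libraries with many, where anti-VSIG4 is 1 mouse, 1 member was called, Klrh1, beside 0.701% of all genes.

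Several members belonged to myeloid cells rather than lymphocytes. Klra2 (Ly49B), an inhibitory Ly49 receptor known from myeloid cells, had 2920 of its 4185 UMIs in monocytes and macrophages and 552 in neutrophils, against 1 in NK cells. In monocytes and macrophages it stood at 55.3, 37.7 and 31.6 CPM in the anti-VSIG4 libraries, against 48.1, 27.9 and 34.8 CPM in the IgG libraries. Klra17 (Ly49Q), known from plasmacytoid dendritic cells (pDC), had its highest level there, at 118.4, 55.8 and 95.6 CPM in the anti-VSIG4 libraries, against 88.1, 129.5 and 97.6 CPM in the IgG libraries. Both genes carry the ITIM codon printed above.

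Klrb1b was shared between NK and myeloid cells. It had 2658 UMIs in monocytes and macrophages and 1571 in cDC2, against 737 in NK cells. In cDC2 it stood at 173.9, 129.2 and 150.1 CPM in the anti-VSIG4 libraries, against 159.6, 180.2 and 181.3 CPM in the IgG libraries. It was found in 15.2% of cDC2 and 2.4% of monocytes and macrophages at 1000 UMIs. Among the macrophage clusters it was at 58.0 CPM in the one led by H2-Ab1, C1qa and Cd74, 18.5 CPM in the one led by Apoe and C1qa and 7.28 CPM in the one led by Saa3 and Arg1. Klri1, the inhibitory counterpart of Klri2, had 133 of its 415 UMIs in cDC2 and 7 in NK cells.

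edgeR called 0 of 9 members in monocytes and macrophages, 0 of 5 in cDC2, 0 of 5 in neutrophils and 0 of 5 in tumour cells, against 0%, 0%, 0.00908% and 0% of all genes. DESeq2 called 0 members in these classes, although in neutrophils it gave an adjusted p for only 2 of 28 members, Klra2 and Klra17, beside 23 genes (0.0978%), 0, 15 (0.194%) and 5 (0.0207%). Without the filter on low counts 1 member was called in neutrophils, Klrd1, beside 0.329% of all genes. At an unadjusted p under 0.05 there were 0, 0, 2 (Klrd1 and Klrb1b) and 2 members (Klrk1 and Klrb1b), against 4.16%, 3.94%, 5.58% and 4.01% of all genes. Groups without overlap were Klrk1 in tumour cells, 1 of 5 on the higher side, where 2.81% of all genes lay (4.76% on the lower side). They were 0 members in monocytes and macrophages, where 4.06% of all genes lay on the higher and 4.03% on the lower side, 0 in cDC2 (4.05% and 5.23%) and 0 in neutrophils (2.93% and 9.64%). In neutrophils Klrd1 stood at 5.80, 6.16 and 1.74 CPM in the anti-VSIG4 libraries, against 0.843, 0.621 and 2.25 CPM in the IgG libraries, from 84 UMIs in 16115 cells. Raw Gzma UMIs in this class were 190, 34 and 93 in the anti-VSIG4 libraries, against 48, 59 and 31 in the IgG libraries. They came from 4116, 1431 and 3031 neutrophils in anti-VSIG4, against 2369, 3409 and 1759 in IgG. The raw counts are not scaled to depth, so they cannot be compared between groups as they stand. The part of RNA from T and NK cells in the Klrd1 values was not tested. Tumour cells had Klrk1 at 4.108, 4.96 and 2.73 CPM in the anti-VSIG4 libraries, against 1.64, 0.790 and 1.92 CPM in the IgG libraries, beside Gzma at 18.1 ± 5.89 CPM in anti-VSIG4 and 9.60 ± 3.77 CPM in IgG (SD, n = 3 each), and the part of RNA from T and NK cells in this was not tested.

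The genes through which the receptors act or which they bind were examined as fixed lists. None of their genes passed edgeR's adjusted threshold in NK cells, higher or lower. Those tested were 12 adaptors and signalling genes, 8 of 10 NK maturation genes and 9 of 10 cytotoxic effectors. Of a list for type 1 innate lymphoid cells and tissue residency, 3 of 9 genes were tested. The median log2 fold changes were 0.02 for adaptors and signalling, 0.03 for maturation, 0.11 for effectors and 0.34 for the residency list, beside 0.002 over all genes. Syk, a kinase downstream of DAP12, stood at 113.1, 125.6 and 99.2 CPM in anti-VSIG4 NK cells, against 77.7, 89.5 and 74.8 CPM in IgG NK cells. Its groups did not overlap, on the higher side where 3.84% of all genes lay, but its adjusted p was 0.995 by edgeR. Cd247, the CD3 zeta chain, stood at 92.1 ± 16.6 CPM in anti-VSIG4 and 137.4 ± 28.6 CPM in IgG NK cells (SD, n = 3 each), with the same adjusted p.

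On the tumour side, the MHC class I genes that Ly49 receptors and CD94-NKG2A read were H2-D1, H2-K1, B2m and H2-T23, the Qa-1 gene. All 4 estimates in tumour cells were negative, with a median of -0.32 on the log2 scale beside -0.01 over all genes, and 0 of 4 were called. H2-T23 stood at 151.6, 113.3 and 152.8 CPM in anti-VSIG4 tumour cells, against 182.5, 199.0 and 176.0 CPM in IgG tumour cells. The groups did not overlap, on the lower side where 4.76% of all genes lay. Its log2 fold change was -0.40 ± 0.18 with an unadjusted p of 0.0587 and an adjusted p of 0.999 by edgeR.

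Of 10 listed NKG2D ligands, 6 were in the files and 2 had counts enough for a test in tumour cells. Raet1e averaged 10.6 ± 2.12 CPM in anti-VSIG4 and 10.2 ± 2.02 CPM in IgG tumour cells (SD, n = 3 each). Clec2d, the ligand of the Klrb1b receptor, averaged 11.3 ± 3.73 CPM in anti-VSIG4 and 13.0 ± 3.03 CPM in IgG tumour cells, and Cdh1, a cadherin that KLRG1 binds, averaged 158 ± 43.4 CPM in anti-VSIG4 and 202 ± 35.8 CPM in IgG tumour cells. None of these 3 genes passed edgeR's adjusted threshold, with an adjusted p of 0.999 for each.

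Some counts of the family carry limits of gene models. Klrb1b and Klrb1c overlap the gene Gm44511 on the same strand, and Klrb1f overlaps Gm43992 and Gm44000 and Klra17 overlaps Gm17631 and Gm44248 on the other strand, in the GENCODE annotation. Whether the counting used strand is not given in the sources used here. Klrc2 shares sequence with Klrc1 and with Klrc3, and Klra3 with Klra10, Klra8 with Klra9 and Klrb1a with Klrb1c share a small part.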

How the data were processed

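Single-cell RNA libraries of 6 tumours (DNBelab C TaiM4 V3.0, DNBSEQ-T7, per the labels' protocols) were read as the UMI count matrices that the authors deposited. PISA 1.0 made them, per the file headers, and the submitters' processing notes name STAR and Seurat 4.11; the sources used here give no genome build, annotation or antibody dose. Cells with 500 UMIs, 300 genes and at most 20% mitochondrial UMIs were kept (47603 of 47794). Scrublet marked 0 cells, so it did not work as a doublet caller, and the top 6% of its scores were removed as an alternative. Cells were clustered without the 28 genes (scanpy 1.11.5; 3000 variable genes, 40 components, Leiden resolution 1), and T and NK cells again after integration over libraries (Seurat 5.3.0). Names came from marker lists; the naming limits and the nucleus-like class (median of 15% of UMIs from genes over 100 kb) were set after seeing the data. In the naive-type class, leading genes of naive T and of NK cells were equal in number.

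For classes with 20 cells in each library, the deposited UMI counts were added up by library and tested with edgeR 4.0.16 (quasi-likelihood, TMM, Benjamini-Hochberg, threshold 0.05) over all genes that passed its filter, with DESeq2 1.42.0 as an alternative; a positive log2 fold change means higher in anti-VSIG4. Members with 50 UMIs over all kept cells were described singly and the others by their counts. Single values were compared by exact permutation. The steps were tested on simulated data. P-values measure the spread between mice, 3 in each group. The members, lists and classes were chosen with earlier results of these data known. Limits on counts of 0 cover counting error only.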

Additional observations from a re-analysis of the deposited data

How the results depend on the processing

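Of 356 alternative values of 25 named member changes, 352 kept their direction and their side of the threshold. The cause of the exceptions was not tested. In the libraries with many nucleus-like cells, where anti-VSIG4 is 1 mouse against 2 IgG mice, Klra9 in NK cells turned to -0.22 on the log2 scale, and 1 member was called in all T and NK cells, Klrh1, at -3.63. In the libraries with few of them, where IgG is 1 mouse against 2 anti-VSIG4 mice, Klrk1 turned to -0.096 in CD4 T cells and to -0.18 in monocytes and macrophages. Without the filter on low counts, 1 member was called in neutrophils, Klrd1, at 2.07. The gamma-delta cluster could not be fitted in any setting, since a library had under 20 cells. With a replicate block 0 members were called in each class fitted. Same-numbered NK samples correlated by 0.244, -0.155 and 0.307. Libraries numbered 1 and 3 were alike in having few or many nucleus-like cells, and those numbered 2 were not. The correlations therefore cannot tell whether the numbers pair the mice. Leaving out each library in turn gave 0 called members in each class fitted, but in all T and NK cells the members at an unadjusted p under 0.05 ranged from 0 to 12. Counts of all genes called moved more, from 0 to 22 in NK cells, 28 in CD8 T cells, 24 in all T and NK cells, 14 in CD4 T cells, 9 in cDC2, 4 in monocytes and macrophages and 4 in tumour cells with the block, and to 5, against 1, in neutrophils. In the libraries with many nucleus-like cells they were 17 in NK cells, 84 in all T and NK cells, 7 in CD4 T cells, 13 in cDC2, 324 in monocytes and macrophages, 57 in tumour cells and 174, against 1, in neutrophils. With few, they were 2 in NK cells, 12 in CD8 T cells, 60 in all T and NK cells, 13 in naive-type T cells, 16 in CD4 T cells, 33 in monocytes and macrophages, 11 in cDC2, 5 in tumour cells and 25 in neutrophils. Without the filter they were 13 in NK cells, 24 in CD8 T cells, 73 in all T and NK cells, 9 in naive-type T cells, 19 in CD4 T cells, 102 in monocytes and macrophages, 14 in cDC2, 48 in tumour cells and 79 in neutrophils. Without IgG 1, 19 genes were called in monocytes and macrophages. Of 38 levels, 38 stayed within 1 SD with high doublet scores removed, 26 of 29 with gene gates and 37 of 38 with clusters built with the members. Klrk1 fell to 70.8 CPM in CD8 T cells with gene gates, against 104 CPM, and to 11.1 CPM in CD4 T cells, against 22.0 CPM. Members with few UMIs, such as Klra10, Klrb1 and Klrc3, could not be compared at this depth.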

Other observations

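Tumour cells held 718 UMIs of Klra4 in 270 of 2671 cells, and this was examined after the values were seen. The UMIs came to 128, 92 and 26 in the anti-VSIG4 libraries and to 57, 144 and 271 in the IgG libraries. Klra8, which accompanied Klra4 in NK cells at 261 CPM beside 489 CPM, had 23 UMIs in tumour cells, and Klrb1c had 28. The 75 tumour cells with 3 or more Klra4 UMIs had a median of 56356 UMIs, against 5293 in the 2401 cells with none. They carried Krt8 at 5684 CPM, against 6398 CPM, and Epcam at 5.41 CPM, against 335 CPM. Tyrobp, the adaptor of Ly49D, stood at 163 CPM in these cells, against 300 CPM in those with none and 5590 CPM in NK cells.

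Klrh1 was uneven between libraries. In the CD4 T sub-cluster led by Gzmc it had 46, 1 and 1 UMIs in the anti-VSIG4 libraries and 30, 19 and 6 in the IgG libraries. In a nucleus-like cluster of 3820 cells, left unnamed, it had 294 UMIs, of which 264 came from IgG 3 and 30 from IgG 2. Its level in that cluster was 25.6 CPM, beside 23.7 CPM in CD4 T cells. Nucleus-like cells were not among the 16 classes ranked above. Klrg2, which has no assigned role, had 112 of its 265 UMIs in monocytes and macrophages and 80 in tumour cells, and 0 in NK cells.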
